A study of Mus musculus with 20 samples.

Results

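Fatty acid synthesis and desaturation were followed through 10 mouse genes: Srebf1, Acly, Acaca, Fasn, Elovl5, Elovl6, Scd1, Scd2, Fads1 and Fads2. They are 10 of the 18820 genes that the array measured with a probe set naming a single gene. Each was read from 1 probe set. Acaca has 2 such probe sets, and the one with the higher mean over all arrays was taken. Cells build fatty acids in the cytosol by turning citrate into acetyl-CoA, carboxylating it to malonyl-CoA and joining these units into palmitate. Elongases then lengthen the chain and desaturases place double bonds in it, which sets how fluid the membranes are and supplies the polyunsaturated lipids that are abundant in brain. Transcription of these enzymes is driven by the sterol-regulated factor SREBP-1, the product of Srebf1, together with the oxysterol receptor LXR.

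The 20 microarrays carried total RNA of mHypoE-46 (E46) and mHypoA-2/12 (A2/12), immortalised clonal lines from mouse hypothalamus, in 5 groups of 4 arrays. The labels describe E46 as sensitive to serotonin and A2/12 as unresponsive. Confluent cells stood in DMEM without serum for 4 h, and the exposure lasted 24 h in every group. The groups were E46 controls, E46 with serotonin labelled 1 µg/ml, E46 with serotonin labelled 100 µg/ml, A2/12 with serotonin labelled 100 µg/ml and A2/12 controls. For E46 the title and the description disagree on the dose: arrays titled 100 are described as 1, and arrays titled 1 as 100. Titles were followed, and doses are written as labelled. In the scan names, the E46 arrays titled 100 carry the same treatment code as the A2/12 arrays titled 100. Whether each array stands for a culture of its own is not stated, so the p-values reflect the spread between arrays, which may be technical.

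Values are log2 expression levels, and any pair of arrays correlated at 0.933 to 0.998 over all genes. The 10 genes lay between 8.03 and 12.77 on every array, against a background level of 4.35 to 4.66, under which 95% of 1155 odorant and pheromone receptor genes fell. Of 10 measured neuron markers 5 lay above background in every group (Map2, Syt1, Stmn2, Eno2 and Thy1), while Rbfox3, Snap25, Elavl4, Nefl and Nefm did not, so Rbfox3, the defining nuclear marker of mature neurons, was not detected in lines labelled as neuronal. Fibroblast markers were above background for 6 of 7 genes in every group. Of the markers of liver and fat, the tissues where this pathway is most active, 1 of 5 measured hepatocyte genes (Apoa1) was above background in every group, and Alb, Ttr, Fgb and Tat were not in any. Of 7 adipocyte genes 2 to 4 were above background, Lipe and Pparg in every group and Plin1, Fabp4 and Cidec in some, while Adipoq and Lep were not in any. The summed linear level of the adipocyte genes was 803 to 862 on the E46 arrays labelled 100, against 740 to 819 in controls, and 383 to 438 on the A2/12 arrays labelled 100, against 336 to 417 in controls. At an adjusted p below 0.05 by limma, 1 of the 7 was called higher and 2 lower in E46. There 20.3% of all genes were higher and 19.3% lower. In A2/12, 2 were called higher and 0 lower, where 24.8% and 21.1% of all genes were. Of the controls, 2 arrays stood apart in such markers. The summed linear level of 7 macrophage markers was 1093 on A2/12 control replicate 4, against 216 to 259 on its fellows, and that of 6 intestinal markers was 169 on E46 control replicate 3, against 99 to 115. Without both arrays the counts of called genes given below for the 10 genes were 8 in E46, 7 in A2/12, 2 for the difference of responses and 4 between controls. The shares of all genes called without them are not given. In RNA from a whole culture, fewer cells of a type and less RNA per cell cannot be told apart.

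The promoters of 7 of the 10 genes were matched in RefSeq (build GRCm38.p6), and 4 are printed because their genes gave the contrasting results below. They belong to Elovl6 with the largest decrease, Fasn with a moderate decrease in both lines and Acly with a decrease in 1 line. The last printed promoter is that of Fads2, whose neighbour Fads1 did not pass the test. Each is the 250 bases before the transcription start, 5′ to 3′ on the gene's strand, with motif matches in capitals. They lie at chr3:129532136-129532385 (+ strand), chr11:120824548-120824797 (- strand), chr11:100528001-100528250 (- strand) and chr19:10101504-10101753 (- strand).
Elovl6: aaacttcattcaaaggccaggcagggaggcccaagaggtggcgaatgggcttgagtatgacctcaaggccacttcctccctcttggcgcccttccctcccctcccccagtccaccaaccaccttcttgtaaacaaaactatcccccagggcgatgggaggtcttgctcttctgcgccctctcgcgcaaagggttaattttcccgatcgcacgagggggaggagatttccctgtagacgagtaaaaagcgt
Fasn: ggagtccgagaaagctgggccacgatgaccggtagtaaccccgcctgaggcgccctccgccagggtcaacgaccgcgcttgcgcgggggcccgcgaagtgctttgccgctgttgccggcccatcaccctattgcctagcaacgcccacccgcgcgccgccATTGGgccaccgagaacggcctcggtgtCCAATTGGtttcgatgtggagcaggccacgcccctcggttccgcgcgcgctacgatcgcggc
Acly: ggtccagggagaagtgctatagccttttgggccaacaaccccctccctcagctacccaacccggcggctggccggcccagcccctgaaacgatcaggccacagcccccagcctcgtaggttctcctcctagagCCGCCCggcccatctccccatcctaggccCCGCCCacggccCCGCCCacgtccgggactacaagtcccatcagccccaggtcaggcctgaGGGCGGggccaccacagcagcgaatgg
Fads2: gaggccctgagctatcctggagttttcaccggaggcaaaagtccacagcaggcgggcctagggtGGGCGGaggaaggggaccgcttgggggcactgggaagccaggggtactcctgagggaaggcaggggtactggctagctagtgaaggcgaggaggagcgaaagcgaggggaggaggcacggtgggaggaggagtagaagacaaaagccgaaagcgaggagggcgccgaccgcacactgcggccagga
The capitals mark the NF-Y letters CCAAT, read as ATTGG on the other strand, and the GC box GGGCGG, read as CCGCCC on the other strand. Fasn held CCAAT 62 bases and ATTGG 90 and 59 bases before the start, and the matches at 62 and 59 overlap. Acly held 4 GC boxes, at 117, 88, 76 and 27 bases, and Fads2 held 1 at 186 bases. No capitals appear in the Elovl6 window. The sterol regulatory element TCACNCCAC, searched on both strands, was in 0 of the 9 windows of these genes and in 1.05% of 32851 mouse windows of the same length. NF-Y letters were in 4 of the 9 windows against 33.8% of all windows, GC boxes in 4 against 32.7%, and the E-box CACGTG in 1, that of Elovl5, against 6.02%. These are matches of letters in a window and say nothing about binding.

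With serotonin labelled 100, fatty acid synthesis and desaturation genes were lower in both lines, and the elongase Elovl6 fell most of the 10 in each. In E46, 8 of the 10 genes fell and 0 rose, where 39.6% of all genes were called at an adjusted p below 0.05, 20.3% higher and 19.3% lower. Their median change was -0.51, against -0.0035 over all genes. In A2/12, 8 fell and 0 rose, where 45.9% of all genes were called, 24.8% higher and 21.1% lower, and the median change was -0.34, against 0.0017 over all genes. Srebf1, Fasn, Elovl5, Elovl6, Scd1, Scd2 and Fads2 fell in both lines, which makes 7 genes. With arrays centred on their medians the shared genes were 4, namely Elovl6, Scd1, Scd2 and Fads2, with 7 of the 10 lower in E46 and 5 in A2/12. That scaling also moved the split over all genes, to 27.9% higher and 14.1% lower in E46 and to 34.6% higher and 15.7% lower in A2/12. Acly fell in E46 and Acaca in A2/12, and Fads1 passed the test in neither. With serotonin labelled 1, 0 of the 10 were called in E46, where 0.0106% of all genes were, 0.00531% higher and 0.00531% lower.

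**Figure D1:**
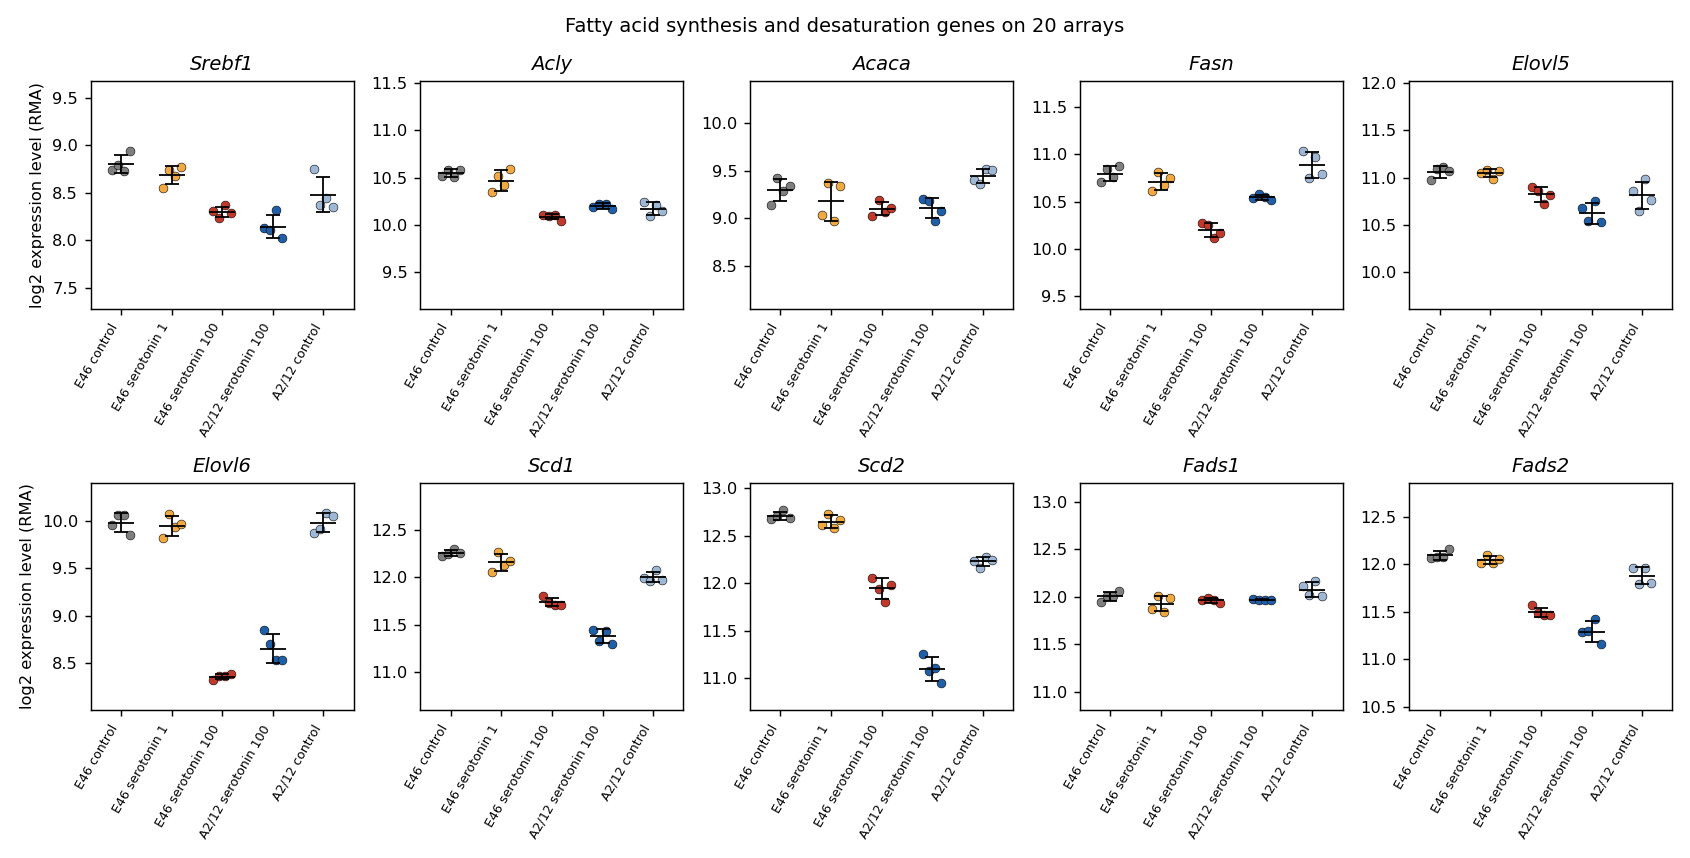
Log2 expression levels (y axis, a span of equal length in each panel) of the 10 genes on each of the 20 arrays, by group (x axis). Points are arrays, and bars are the mean ± SD of 4. Elovl6, Scd1, Scd2 and Fads2 lie lower in both groups labelled 100 than in either control group, and the Fads1 points lie close together in all groups.

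Srebf1 encodes SREBP-1, the transcription factor that the pathway answers to. In E46 it lay at 8.31, 8.24, 8.37 and 8.28 on the arrays labelled 100, against 8.74, 8.79, 8.73 and 8.94 in controls. The groups did not overlap, and Srebf1 fell by 1.41-fold (log2 change -0.50 ± 0.09, adjusted p = 7.26e-05). In A2/12 it lay at 8.12, 8.11, 8.31 and 8.03 on the arrays labelled 100, against 8.75, 8.37, 8.45 and 8.35 in controls. The lowest control was just above the highest serotonin array, control replicate 1 stood well above the other controls, and the change was -0.33 ± 0.09 (adjusted p = 0.00283). With arrays centred on their medians this change was -0.17 and not called (adjusted p = 0.125). In order of mean, Srebf1 was lowest in A2/12 with serotonin and rose through E46 at the labelled 100, A2/12 controls and E46 at the labelled 1 to E46 controls, and no pair of neighbours in that order passed the test.

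Acly encodes ATP citrate lyase, which splits exported citrate into the acetyl-CoA that the pathway uses. In E46 it lay at 10.10, 10.10, 10.11 and 10.04 on the arrays labelled 100, against 10.51, 10.58, 10.50 and 10.58 in controls. The groups were far apart compared with their spread, with a log2 change of -0.46 ± 0.06 (adjusted p = 2.72e-06), a level 1.37-fold lower. In A2/12 Acly lay at 10.19, 10.22, 10.22 and 10.17 on the arrays labelled 100, against 10.24, 10.09, 10.21 and 10.15 in controls. Those groups overlapped, the change of 0.03 ± 0.06 was not called (adjusted p = 0.787), and its 95% confidence interval was -0.10 to 0.15. Both A2/12 groups and E46 at the labelled 100 thus formed the low end of the order, with no neighbours called among them, and the step up to E46 at the labelled 1 was called (adjusted p = 0.000738).

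Acaca encodes acetyl-CoA carboxylase 1, which makes malonyl-CoA, the committed step. In A2/12 it lay at 9.20, 9.18, 8.97 and 9.08 on the arrays labelled 100, against 9.40, 9.36, 9.52 and 9.50 in controls. The groups did not overlap, and Acaca fell by 1.27-fold (log2 change -0.34 ± 0.09, adjusted p = 0.00311). In E46 it lay at 9.03, 9.19, 9.06 and 9.11 on the arrays labelled 100, against 9.14, 9.42, 9.29 and 9.34 in controls. Control replicate 1 lay within the range of the serotonin arrays, and the change of -0.20 ± 0.09 was not called (adjusted p = 0.0865); without that array it was -0.25 (adjusted p = 0.0394), and with quantile normalization -0.25 (adjusted p = 0.00366). The second Acaca probe set lay at 8.39 ± 0.08 on the E46 arrays labelled 100, against 8.45 ± 0.23 in controls, and at 8.31 ± 0.20 on the A2/12 arrays labelled 100, against 8.63 ± 0.14 in controls (mean ± SD, n = 4 each). Of the 5 group means in order, no neighbours passed the test.

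Fasn encodes fatty acid synthase, the enzyme that assembles palmitate. In E46 it lay at 10.27, 10.25, 10.11 and 10.17 on the arrays labelled 100, against 10.71, 10.84, 10.76 and 10.88 in controls. All serotonin arrays were lower than all controls, and Fasn fell by 1.51-fold (log2 change -0.59 ± 0.07, adjusted p = 6.69e-07). In A2/12 it lay at 10.53, 10.58, 10.55 and 10.52 on the arrays labelled 100, against 11.03, 10.75, 10.97 and 10.79 in controls. The serotonin arrays were close together and below every control, with a change of -0.34 ± 0.07 (adjusted p = 0.000417). With centred arrays it was -0.18 and not called (adjusted p = 0.0616). E46 at the labelled 100 was the lowest group and A2/12 at the labelled 100 the next, and this step was called (adjusted p = 0.000459), while the 3 steps above it were not.

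Elovl6 encodes the elongase that lengthens palmitate toward stearate. In E46 it lay at 8.32, 8.37, 8.36 and 8.38 on the arrays labelled 100, against 9.96, 10.06, 10.06 and 9.85 in controls. The serotonin arrays lay within a narrow band more than 1 log2 unit below the lowest control, and Elovl6 fell by 3.09-fold (log2 change -1.63 ± 0.08, adjusted p = 3.29e-12). Of all 18820 genes, 263 had a larger decrease. In A2/12 Elovl6 lay at 8.85, 8.70, 8.53 and 8.53 on the arrays labelled 100, against 9.88, 9.91, 10.09 and 10.05 in controls. These groups did not overlap either, and Elovl6 fell by 2.51-fold (log2 change -1.33 ± 0.08, adjusted p = 1.2e-11). A larger decrease in that line was seen for 796 genes. The lowest mean was that of E46 at the labelled 100, followed by A2/12 at the labelled 100, and the step between them and the step above were called (adjusted p = 0.00492 and 1.14e-11), while both control groups and E46 at the labelled 1 lay together.

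Elovl5 encodes an elongase of polyunsaturated fatty acids, and its changes were small. In E46 it lay at 10.90, 10.86, 10.72 and 10.82 on the arrays labelled 100, against 10.97, 11.09, 11.11 and 11.07 in controls. The highest serotonin array was just below the lowest control, with a change of -0.23 ± 0.07 (adjusted p = 0.0151) that lost its call without serotonin replicate 3 (-0.20, adjusted p = 0.0604). In A2/12 it lay at 10.68, 10.54, 10.76 and 10.53 on the arrays labelled 100, against 10.86, 10.65, 10.98 and 10.76 in controls. The groups overlapped, and the change of -0.19 ± 0.07 was just inside the threshold (adjusted p = 0.0468). The call was lost in 21 of 35 alternatives, which leave aside the crossed doses and the fits of single position numbers described below. Without A2/12 control replicate 3 the change was -0.13 (adjusted p = 0.189). With centred arrays Elovl5 was called in neither line (-0.11 in E46, adjusted p = 0.309, and -0.03 in A2/12, adjusted p = 0.812).

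Scd1 and Scd2 encode stearoyl-CoA desaturases, which place the double bond of oleate and palmitoleate, Scd2 being the form known from mouse brain and Scd1 that of liver and fat. In E46 Scd2 lay at 12.06, 11.94, 11.80 and 11.99 on the arrays labelled 100, against 12.67, 12.71, 12.77 and 12.69 in controls. In A2/12 Scd2 lay at 11.25, 11.08, 11.11 and 10.95 on the arrays labelled 100, against 12.24, 12.16, 12.28 and 12.24 in controls. Neither line showed overlap, and Scd2 fell by 1.7-fold in E46 (log2 change -0.76 ± 0.07, adjusted p = 1.46e-08) and by 2.19-fold in A2/12 (log2 change -1.13 ± 0.07, adjusted p = 1.86e-11). In E46 Scd1 lay at 11.81, 11.73, 11.71 and 11.71 on the arrays labelled 100, against 12.22, 12.25, 12.29 and 12.26 in controls. In A2/12 Scd1 lay at 11.45, 11.33, 11.43 and 11.30 on the arrays labelled 100, against 11.99, 11.96, 12.08 and 11.97 in controls. The controls of each line were close together and all serotonin arrays were lower, with changes of -0.52 ± 0.06 in E46 (adjusted p = 4.8e-07) and -0.62 ± 0.06 in A2/12 (adjusted p = 1.88e-08). Both genes had the same order of groups, lowest in A2/12 with serotonin, then E46 at the labelled 100, A2/12 controls, E46 at the labelled 1 and E46 controls, and every step except the last was called.

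Fads2 encodes the desaturase that takes the first step from dietary linoleate and alpha-linolenate, and Fads1 the desaturase of a later step that yields arachidonate. In the RefSeq order the pair are neighbours on chromosome 19. In E46 Fads2 lay at 11.57, 11.48, 11.46 and 11.46 on the arrays labelled 100, against 12.06, 12.07, 12.08 and 12.16 in controls. In A2/12 Fads2 lay at 11.29, 11.30, 11.42 and 11.16 on the arrays labelled 100, against 11.96, 11.80, 11.96 and 11.81 in controls. The groups were apart in both lines, and Fads2 fell by 1.52-fold in E46 (log2 change -0.60 ± 0.06, adjusted p = 1.43e-07) and by 1.5-fold in A2/12 (log2 change -0.59 ± 0.06, adjusted p = 1.17e-07). Its order of groups was that of Scd1 and Scd2, and again every step except the last was called. In E46 Fads1 lay at 11.97, 11.99, 11.97 and 11.93 on the arrays labelled 100, against 11.95, 12.01, 12.01 and 12.06 in controls. In A2/12 Fads1 lay at 11.97, 11.96, 11.97 and 11.97 on the arrays labelled 100, against 12.11, 12.02, 12.16 and 12.00 in controls. The E46 groups overlapped and the A2/12 groups did not, but neither change was called (-0.04 ± 0.06 with an interval of -0.16 to 0.08 and adjusted p = 0.636 in E46, -0.11 ± 0.06 with an interval of -0.23 to 0.01 and adjusted p = 0.149 in A2/12). The 5 means of Fads1 ran from 11.93 ± 0.08 in E46 at the labelled 1 to 12.08 ± 0.08 in A2/12 controls, and no neighbours in that order passed the test.

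**Figure D2:**
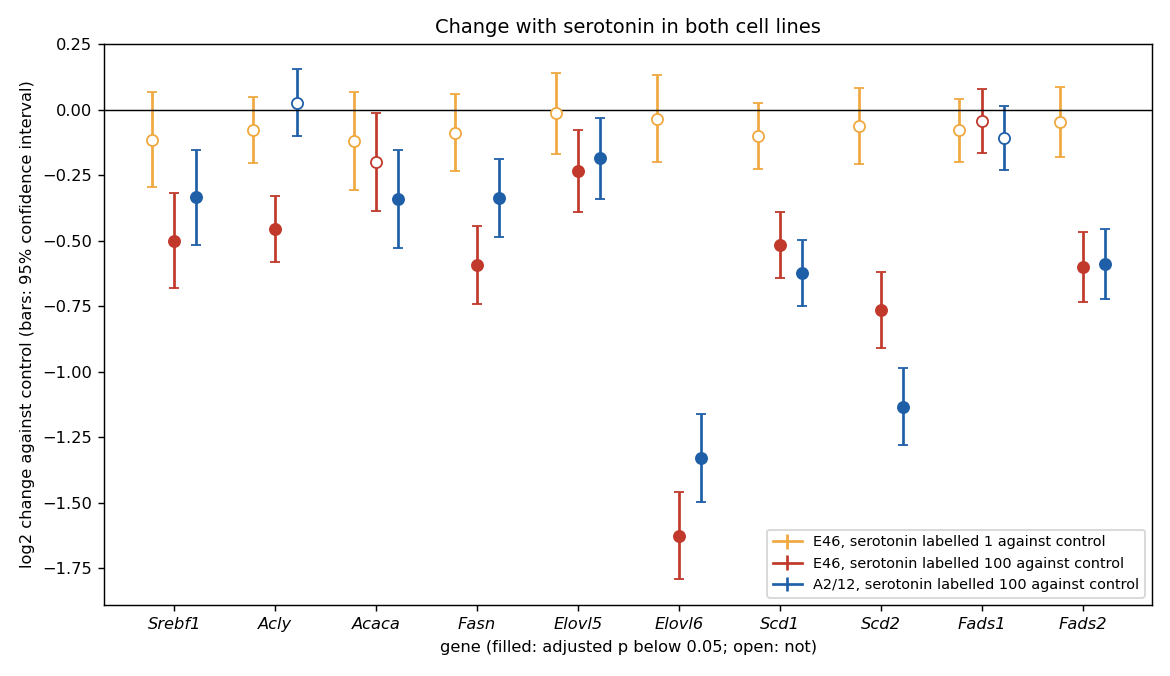
Log2 change against the controls of the same line (y axis) for each gene (x axis), with 95% confidence intervals, n = 4 arrays in each group. Filled points passed an adjusted p of 0.05. All changes labelled 1 are open and lie between -0.12 and -0.01, and the Elovl6 points labelled 100 lie lowest, at -1.63 in E46 and -1.33 in A2/12.

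The E46 arrays labelled 1 stayed near the controls. Elovl6 lay there at 9.82, 10.07, 9.94 and 9.96, Scd2 at 12.62, 12.73, 12.58 and 12.66 and Fads2 at 12.02, 12.10, 12.02 and 12.06. Each of these sets of arrays overlapped the controls, as did those of the other 7 genes. The changes of the 10 genes ran from -0.12 for Acaca to -0.01 for Elovl5, with a median of -0.08 against -0.04 over all genes, and their adjusted p by limma lay between 0.415 for Scd1 and 0.939 for Elovl5. Over all genes 2993 had an unadjusted p below 0.05. The intervals bound what these arrays could show: for Elovl6 the 95% confidence interval was -0.20 to 0.13, and for Srebf1 -0.30 to 0.07. Without replicate 2 at the labelled 1, 284 genes were called over the array, and still 0 of the 10.

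Set directly against the labelled 1, the labelled 100 was lower in 8 of the 10 genes and higher in 0, where 41.4% of all genes were called, 23.6% higher and 17.8% lower. These were the 8 genes that fell against controls, and both comparisons share the arrays labelled 100. Elovl6 differed by -1.59 ± 0.08, Scd2 by -0.70 ± 0.07, Fads2 by -0.55 ± 0.06 and Fasn by -0.51 ± 0.07. Acaca (-0.08 ± 0.09, adjusted p = 0.52) and Fads1 (0.04 ± 0.06, adjusted p = 0.673) were not called. Read by the dose of the description, the direction of each of these differences turns. The decreases of E46 stay on the arrays titled 100, whose dose is then 1.

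The responses of both lines were then compared with each other, E46 minus A2/12, since the labels set a sensitive line against an unresponsive one. For 2 of the 10 genes the difference was called, where 22% of all genes were called, 11.1% higher and 10.9% lower. The count thus lay near the share of all genes. The change of Acly differed by -0.48 ± 0.09 (adjusted p = 0.000228), since its change was -0.46 in E46 and 0.03 in A2/12. Scd2 went the other way: its change was -0.76 in E46 and -1.13 in A2/12, a difference of 0.37 ± 0.10 (adjusted p = 0.00905). Fasn (-0.26 ± 0.10, adjusted p = 0.078) and Elovl6 (-0.30 ± 0.11, adjusted p = 0.0675) had larger decreases in E46 that did not pass, and both passed with a trended and robust eBayes, with quantile normalization and with the upper quartile of the array as a covariate. Read by the doses of the description, the difference of Acly was -0.10 and no longer called (adjusted p = 0.363), that of Scd2 was 1.07 (adjusted p = 2.19e-08), and Elovl6, Scd1 and Fads2 were called as well. Read by the titles, for Fads2 the difference was -0.01, with an interval of -0.20 to 0.18, and for Scd1 0.11, with an interval of -0.07 to 0.29.

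**Figure D3:**
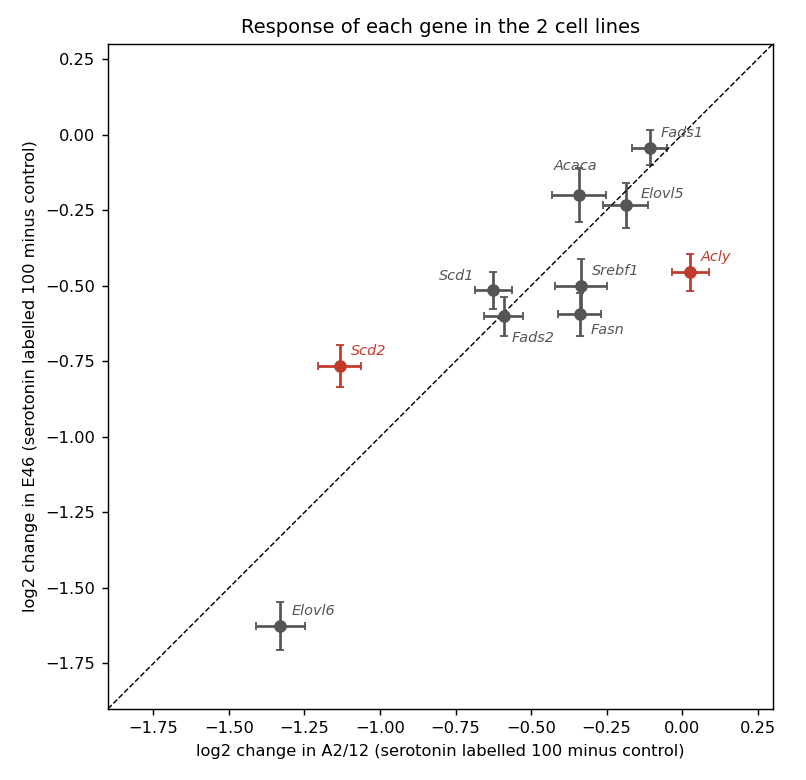
Log2 change with serotonin labelled 100 in E46 (y axis) against that in A2/12 (x axis), ± SE, for the 10 genes. The dashed line marks equal changes, and red points mark genes whose changes differed between the lines at an adjusted p below 0.05. Acly lies below the line, at -0.46 in E46 and 0.03 in A2/12, and Scd2 above it, at -0.76 and -1.13.

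Without serotonin, the lines differed in the level of 6 of the 10 genes, all higher in E46, where 39.1% of all genes were called, 21.1% higher and 18.1% lower. Scd2 was 12.71 ± 0.04 in E46 controls and 12.23 ± 0.05 in A2/12 controls (SD, n = 4 each), a difference of 0.48 ± 0.07 (adjusted p = 9.19e-06). Acly was 10.54 ± 0.04 in E46 controls and 10.17 ± 0.07 in A2/12 controls, a difference of 0.37 ± 0.06 (adjusted p = 3.75e-05). Neither gene's groups overlapped. Srebf1 (0.32 ± 0.09), Elovl5 (0.25 ± 0.07), Scd1 (0.25 ± 0.06) and Fads2 (0.21 ± 0.06) were also higher in E46, although for Srebf1 and Elovl5 the groups overlapped. Without E46 control replicate 3 and A2/12 control replicate 4 the calls of Elovl5 (0.22, adjusted p = 0.0747) and Fads2 (0.20, adjusted p = 0.0596) were lost. Elovl6 was at 9.98 ± 0.10 in E46 controls and 9.98 ± 0.10 in A2/12 controls, with an interval of -0.17 to 0.17 for the difference.

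Related enzymes changed by unequal amounts. Within an array, Fads1 minus Fads2 was 0.40, 0.51, 0.50 and 0.47 on the E46 arrays labelled 100, against -0.12, -0.06, -0.07 and -0.10 in controls. The difference thus shifted by 0.56 in E46, and by 0.48 in A2/12, with no overlap in either. Scd1 minus Scd2 was -0.25, -0.21, -0.09 and -0.27 on the E46 arrays labelled 100, against -0.45, -0.46, -0.48 and -0.43 in controls. In A2/12 it was 0.19, 0.25, 0.33 and 0.35 on the arrays labelled 100, against -0.24, -0.20, -0.20 and -0.27 in controls. Again no groups overlapped, and the shifts were 0.25 in E46 and 0.51 in A2/12, so that Scd2 was lower relative to Scd1. Elovl5 minus Elovl6 shifted by 1.39 in E46 and 1.14 in A2/12, also without overlap. Each of these 6 shifts had p = 0.02857 by a two-sided exact permutation test of 4 arrays against 4, the smallest it can give, and 0.04286 adjusted over the 9 comparisons made. At the labelled 1 the shifts were -0.04 for the Scd pair, -0.03 for the Fads pair and 0.02 for the Elovl pair (adjusted exact p = 0.2571, 0.3857 and 0.7143).

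**Figure D4:**
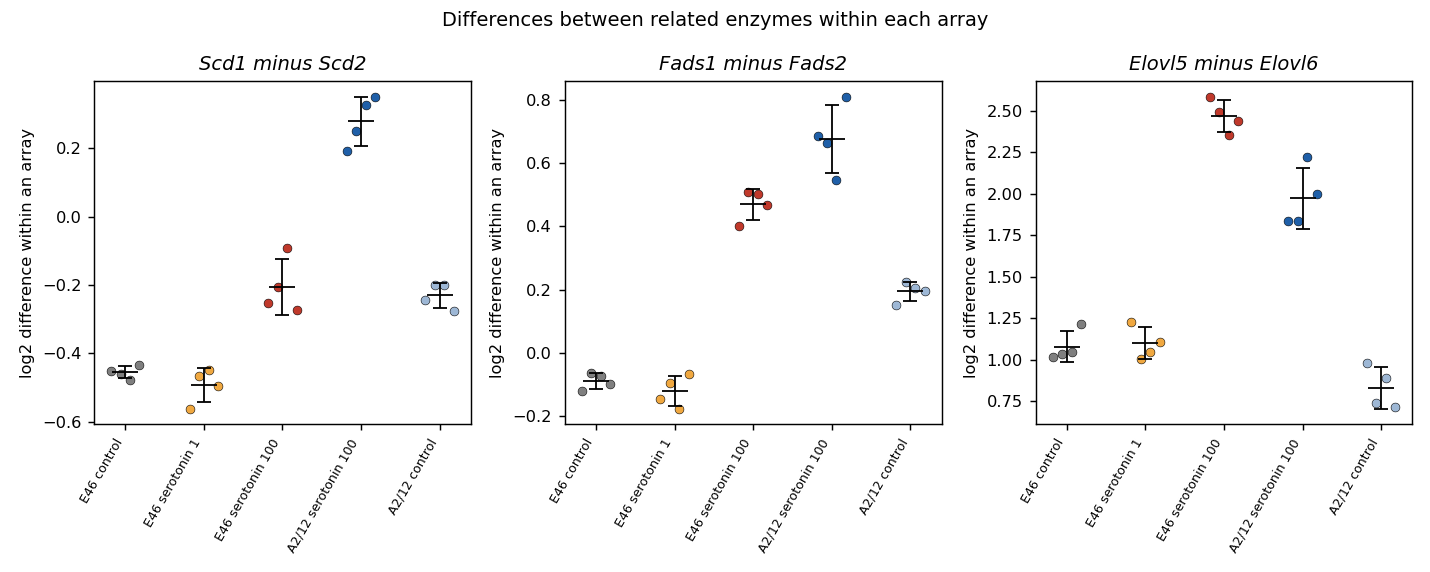
Log2 difference between related enzymes within each array (y axis) by group (x axis), with the mean ± SD of 4 arrays. Only shifts between groups can be read, since levels of different probe sets are not on 1 scale. In all panels the arrays labelled 100 of both lines lie above the controls of their line and the arrays labelled 1 overlap theirs.

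Genes that supply acetyl-CoA and NADPH were split. In E46, 3 of 9 measured genes rose and 3 fell, and in A2/12, 2 rose and 4 fell. Those are 33% and 33% in E46, and 22% and 44% in A2/12. Over all genes 20.3% were called higher and 19.3% lower in E46, and 24.8% and 21.1% in A2/12. Acss2, which makes acetyl-CoA from acetate, changed by -1.53 ± 0.10 in E46 (adjusted p = 1.6e-10) and -1.87 ± 0.10 in A2/12 (adjusted p = 2.85e-12). Idh1, a cytosolic source of NADPH, changed by -1.39 ± 0.14 in E46 and -2.09 ± 0.14 in A2/12. Slc25a1, the mitochondrial citrate carrier upstream of Acly, fell in E46 (-0.69 ± 0.06, adjusted p = 9.76e-09) and was at 0.01 ± 0.06 in A2/12 (adjusted p = 0.924), and this difference between the lines was called by the doses of the titles (-0.70, adjusted p = 3.17e-06) but not by those of the description (-0.12, adjusted p = 0.293). Pcx, pyruvate carboxylase, had the reverse pattern, at 0.02 ± 0.08 in E46 (adjusted p = 0.869) and -1.43 ± 0.08 in A2/12 (adjusted p = 9.57e-12).

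Among 16 other elongation and desaturation genes, 4 rose and 4 fell in E46, and 9 rose and 3 fell in A2/12. In E46 that is 25% higher and 25% lower, near the 20.3% and 19.3% over all genes. In A2/12 it is 56% and 19%, against 24.8% and 21.1% over all genes. The median changes of 0.08 in E46 and 0.36 in A2/12 were above 0, unlike those of the 10 genes. Elovl3, an elongase of saturated chains, lay at 6.15, 6.55, 6.29 and 6.41 on the E46 arrays labelled 100, against 4.35, 4.36, 4.31 and 4.56 in controls, which were near background. It rose by 1.95 ± 0.16 in E46 and by 1.35 ± 0.16 in A2/12, values that the background compresses. Elovl4, which makes very long chains, rose by 0.32 ± 0.07 in E46 and 0.89 ± 0.07 in A2/12. Hacd4, a dehydratase of the elongation cycle, fell by 2.88-fold in E46 (-1.53 ± 0.15) and 8.1-fold in A2/12 (-3.02 ± 0.15). Its mean on the A2/12 arrays labelled 100 was 4.17, below the background level of 4.35 there, so the size of that fall is bounded by background. Fads3, which neighbours Fads2, was not called in E46 (-0.13 ± 0.07, adjusted p = 0.124) and rose in A2/12 (0.60 ± 0.07, adjusted p = 1.12e-07).

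Of 15 measured regulators of the pathway, 4 rose and 3 fell in E46, and 5 rose and 5 fell in A2/12. In E46 that is 27% higher and 20% lower, near the 20.3% and 19.3% over all genes. In A2/12 it is 33% each way, against 24.8% and 21.1% over all genes. Prkaa2, a catalytic subunit of AMP-activated kinase, which inhibits acetyl-CoA carboxylase, rose by 1.07 ± 0.15 in E46 and 1.39 ± 0.15 in A2/12. Mlx, the partner of the glucose-responsive factor ChREBP, rose by 0.44 ± 0.06 and 0.59 ± 0.06. Mbtps1, the protease that makes the first cut in SREBP precursors, was at -0.09 ± 0.07 in E46 (adjusted p = 0.329) and fell in A2/12 (-0.74 ± 0.07, adjusted p = 7.84e-09). Mid1ip1, which helps acetyl-CoA carboxylase to polymerise, was at -0.07 ± 0.08 in E46 (adjusted p = 0.569) and rose in A2/12 (1.12 ± 0.08, adjusted p = 1.66e-10). Of 5 LXR targets outside fatty acid synthesis, 3 fell and 0 rose in E46, and 4 fell and 0 rose in A2/12, where 3 fell and 1 rose with centred arrays. Over all genes 19.3% were called lower in E46 and 21.1% in A2/12. With centred arrays the A2/12 shares were 15.7% lower and 34.6% higher. Apoe, a lipid carrier, changed by -0.67 ± 0.09 in E46 and -2.03 ± 0.09 in A2/12. The cholesterol exporter Abca1 fell in E46 (-0.71 ± 0.10) and was at 0.07 ± 0.10 in A2/12 (adjusted p = 0.635).

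Genes that burn fatty acids were lower as well. Of 13 measured oxidation genes 9 fell and 0 rose in E46, and 11 fell and 1 rose in A2/12, with median changes of -0.25 and -0.50. Over all genes 19.3% were called lower in E46 and 21.1% in A2/12. With arrays centred on their medians 6 fell in E46 and 9 in A2/12, where 14.1% and 15.7% of all genes were called lower. Cpt1a, which admits long chains to mitochondria, lay at 7.76, 7.28, 7.21 and 7.13 on the A2/12 arrays labelled 100, against 10.44, 10.48, 10.48 and 10.40 in controls. That is a change of -3.11 ± 0.12, and in E46 the change was -1.48 ± 0.12, with the difference between the lines called (adjusted p = 5.29e-07). Acadm, a medium-chain dehydrogenase, changed by -1.15 ± 0.12 in E46 and -1.69 ± 0.12 in A2/12.

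Acyl-CoA and glycerolipid genes were mixed, with 3 of 13 rising and 3 falling in E46 and 4 and 4 in A2/12. In E46 that is 23% each way, near the 20.3% higher and 19.3% lower over all genes. In A2/12 it is 31% each way, against 24.8% and 21.1% over all genes. Lpcat3, which inserts polyunsaturated chains into phospholipids, fell by 2.06-fold in E46 and 1.36-fold in A2/12, and Dgat2, which makes triglyceride, rose by 1.86-fold and 1.93-fold. Of 12 uptake, binding and storage genes 7 fell and 2 rose in E46, and 5 fell and 3 rose in A2/12, where with centred arrays 2 fell and 4 rose. Lower were thus 58% in E46 and 42% in A2/12, against the same 19.3% and 21.1%. With centred arrays 15.7% of all genes were called lower in A2/12 and 34.6% higher. Fabp3, a fatty acid binding protein, fell by 1.99-fold in E46 and 1.97-fold in A2/12, and Plin2, which coats lipid droplets, rose by 0.17 ± 0.06 and 0.48 ± 0.06. For comparison, all 17 measured cholesterol synthesis genes fell in E46, with a median of -1.07, and 12 fell and 1 rose in A2/12, with a median of -0.46. At the labelled 1 the count of called genes was 0 in each of these 8 lists by limma, where 0.0106% of all genes were called.

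**Figure D5:**
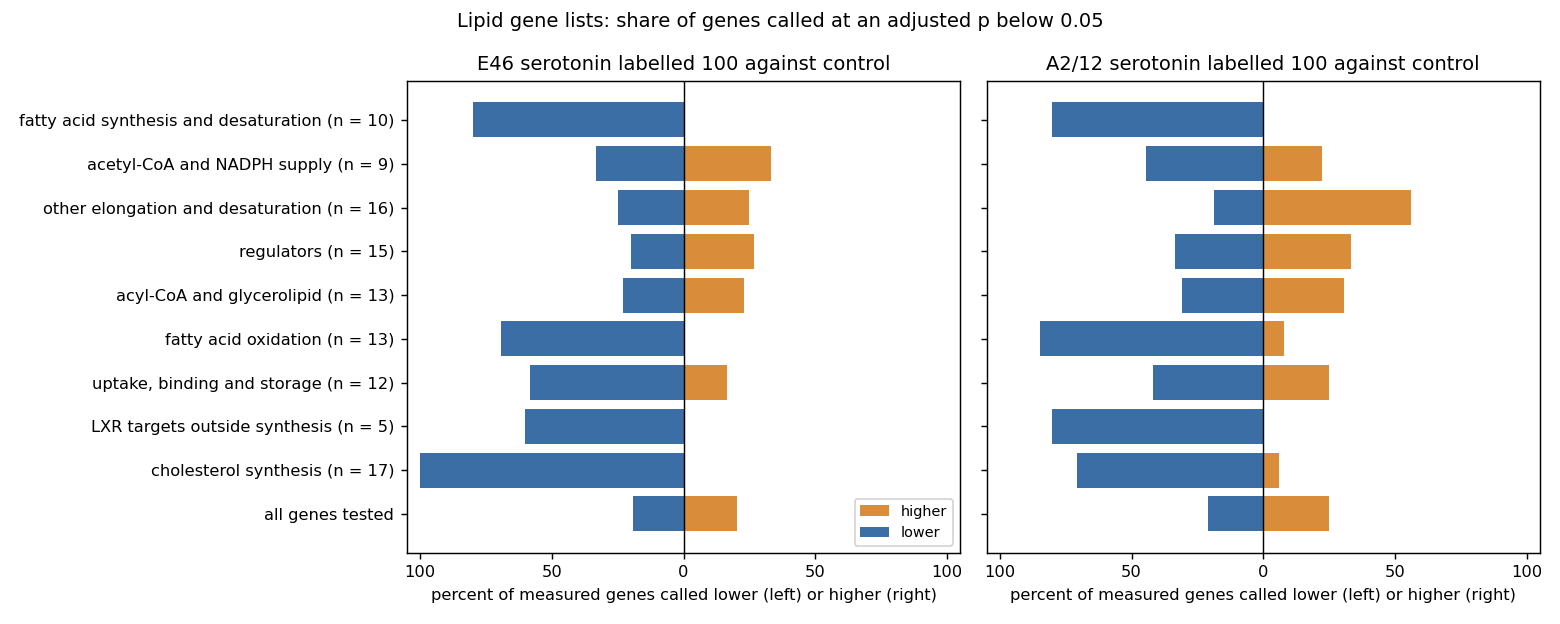
Percent of the measured genes of each list (rows, n in the row names) called lower (left of 0) or higher (right of 0) with serotonin labelled 100 in E46 and A2/12, beside the same over all genes tested. The fatty acid synthesis and desaturation genes reach 80% lower with 0% higher in both lines, against 19.3% and 21.1% lower over all genes.

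Other cell markers moved in the same arrays. The summed linear level of the fibroblast markers was 3059 to 4845 on the E46 arrays labelled 100, against 11178 to 12158 in controls, and 3655 to 4712 on the A2/12 arrays labelled 100, against 17900 to 20089 in controls. That of the neuron markers was 776 to 963 in E46 with serotonin labelled 100, against 1789 to 1991 in controls, and 728 to 827 in A2/12 with serotonin labelled 100, against 1871 to 2095 in controls. That of the astrocyte markers was 721 to 1031 in E46 with serotonin labelled 100, against 2325 to 2644 in controls, and 1512 to 1754 in A2/12 with serotonin labelled 100, against 2348 to 2654 in controls. Of the 7 astrocyte genes 3 to 5 were above background. These were Slc1a3, Slc1a2 and Sox9 in every group, Aldh1l1 in the E46 groups and S100b in E46 controls. Gfap and Aqp4 were not above background in any group. In these sums 6 of 7 fibroblast, 3 of 10 neuron and 5 of 7 astrocyte markers fell in E46, where 19.3% of all genes were called lower. In A2/12, 5, 4 and 4 fell and 1 neuron marker rose, where 21.1% of all genes were called lower and 24.8% higher. The median log2 changes were -1.29, -0.09 and -0.44 in E46 and -3.04, -0.03 and -0.32 in A2/12. The neuron sum thus fell through part of its genes, and of these sets the neuron counts lay nearest to the share of all genes. The macrophage sum was higher in E46 with serotonin labelled 100, at 456 to 514 against 323 to 418 in controls. In A2/12 it was 393 to 441, against 216 to 259 in controls apart from replicate 4 at 1093. Of 7 macrophage genes 1 was called higher and 0 lower in each line, with median changes of -0.11 and -0.25. Over all genes 20.3% and 24.8% were called higher. The part of these markers in the changes of the 10 genes was not tested.

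The scan names also give each array a position number, 5, 7 or 9, and all 5 groups have 1 or 2 arrays at each number. Within the numbers 5, 7 and 9 alone, Elovl6 changed by -1.54, -1.71 and -1.70 in E46 and by -1.43, -1.22 and -1.39 in A2/12, where 1 or 2 arrays stand for each group. Scd2 changed by -0.88, -0.68 and -0.83 in E46 and by -1.13, -1.06 and -1.20 in A2/12. All 10 genes were below 0 in E46 within each number, and 9 were below 0 in A2/12. In E46 4, 7 and 1 of the 10 were called, where 16.9%, 18.4% and 4.63% of all genes were, and in A2/12 2, 4 and 2, where 22.1%, 37.5% and 9.9% of all genes were, so that the A2/12 counts at 5 and 7 were near the share of all genes. The spread behind these calls comes from the few groups with 2 arrays at a number, with 2, 2 and 1 residual degrees of freedom, and at number 9 only from the pair of E46 arrays labelled 1, so the calls there carry little weight. The difference of responses was -0.46, -0.60 and -0.42 for Acly and 0.25, 0.37 and 0.37 for Scd2, called at no number. With the position number as a block, 8 were called in E46 and 7 in A2/12, and the shares of all genes in that fit are not given. The row letter of the scan position follows the order of the groups, so that a drift from row to row and the groups cannot be told apart.

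For correlations over the 20 arrays, the control mean of each array's own line was first subtracted. Elovl6 then followed most closely Nsdhl (Pearson r = 0.989), Mecom (0.988) and Cav1 (0.987) among 13488 genes ranked, and Nsdhl is an enzyme of cholesterol synthesis. Scd2 was most like Gstm7 (0.997), Scd1 like Bmf (0.992), Fads2 like Ephb3 (0.990), Fasn like Plekhg2 (0.975), Acly like Matn3 (0.974) and Srebf1 like Adamtsl5 (0.971). Acaca (0.950, A730008H23Rik), Elovl5 (0.903, Actr1a) and Fads1 (0.903, Ddb1) had looser neighbours. Among the 10 genes themselves, Scd1 and Scd2 were the closest pair (0.981) and Acly and Fads1 the farthest (0.156). The arrays form 5 groups and were normalized together, and the subtraction sets the mean of both control groups to 0. These values therefore describe mainly how the mean changes against controls line up.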

How the data were processed

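Total RNA of 20 arrays was compared. The deposited values are log2 levels computed by the authors with RMA from Affymetrix gene arrays, per the submitters' processing notes. RMA removes background, brings arrays to 1 distribution and summarises probe sets, and which version ran is not stated. The table has 35556 probe sets, of which 21218 have 1 symbol in the platform annotation, 1881 several and 12457 none. The last 2 kinds were left out. Where a gene had several probe sets (1386 genes), the brightest on average was kept, giving 18820 genes. Groups and doses follow the titles.

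All arrays entered 1 limma fit (version 3.58.1, R 4.3.3) with a mean for each group, 15 residual degrees of freedom and default eBayes. Adjusted p-values are Benjamini-Hochberg over all genes, and those below 0.05 were called. Differences between related enzymes were tested by exact permutation of arrays (scipy 1.17.1). With 4 arrays a group, precision is limited by their number, and a change had a median standard error of 0.100. Python 3.11.15 and matplotlib 3.10.9 were used for tables and figures.

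The 10 genes and the lists were chosen with earlier results of these data known. All 10 are named. Genes named from the other lipid lists are among the up to 4 of each list with the smallest adjusted p in either response to serotonin labelled 100. Of those, Fabp7, Mboat1, Lpin2 and Dhcr7 are not described. Also named are the genes with the highest correlation over the arrays, after subtracting the control mean of each line. Promoter windows are from RefSeq. In simulated data for E46 at the labelled 100, 67 genes were changed 2-fold, 67 1.5-fold and 66 1.2-fold, among 18820 genes. Of these, 98.5%, 85.1% and 24.2% were recovered, and 4.14% of calls were false. Far fewer genes were changed there than were called in the real arrays, so these shares may not carry over. Alternatives were other fits, normalizations, thresholds, probe set choices, position or replicate numbers as a block, the crossed doses and leaving out each array. Chosen after seeing the data were leaving out the 4 arrays of lowest upper quartile, the upper quartile as a covariate, and leaving out E46 control replicate 3 and A2/12 control replicate 4.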

Additional observations from a re-analysis of the deposited data

Results flagged for a closer look

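The response to serotonin labelled 100 differed between the lines for Acly (E46 minus A2/12 -0.48) and Scd2 (0.37) by the test of the difference itself, with the doses of the titles. That is 2 of the 10 genes, near the 22% of all genes called for this difference. With those of the description, the difference of Acly was -0.10 (adjusted p = 0.363) and that of Scd2 1.07 (adjusted p = 2.19e-08). Dixon's test at 95% was run on 174 groups of 4 arrays, of which chance picks out about 1 in 20, and 10 groups had an array far from its fellows. Among the 10 genes of the report this was Fads2 in E46 control replicate 4, at 12.16 against 12.06 to 12.08 on the other controls. On E46 control replicate 1, 4 other genes were low: Fabp5 at 8.17, Idh1 at 10.59, Lpcat3 at 10.44 and Mylip at 6.28. The rest were Mbtps1 at 10.83 in E46 at the labelled 100, replicate 4; Mlx at 9.87 and Hadhb at 7.01 in A2/12 at the labelled 100, replicates 2 and 1; and Acaa2 at 10.31 and Ebp at 9.73 in A2/12 controls, replicates 1 and 4.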

How the results depend on the processing

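Leaving out each array in turn gave 7 to 9 of the 10 genes called in E46 at the labelled 100, 0 to 0 at the labelled 1, 7 to 8 for 100 against 1, 7 to 8 in A2/12, 2 to 3 for the difference of responses and 6 to 6 between controls. In the same order, 6773 to 7578, 1 to 284, 7037 to 8194, 8190 to 8762, 3751 to 4287 and 6810 to 7518 of all 18820 genes were called. Within position numbers 5, 7 and 9, with 1 or 2 arrays a group, the counts were 4, 7 and 1 in E46 (16.9%, 18.4% and 4.63% of all genes), 2, 4 and 1 for 100 against 1 (10.9%, 27.1% and 7.28%), 2, 4 and 2 in A2/12 (22.1%, 37.5% and 9.9%), 0 each for the difference of responses and 0, 1 and 0 between controls. Requiring 1.5-fold left 4, 2, 4, 0 and 0. For this cut and the fits that follow, the shares of all genes called are not given. The difference of responses was called for 4 genes with trended and robust eBayes, quantile normalization, the upper quartile as a covariate or the crossed doses. Replicate numbers did not pair the samples (14 of 40 same-number correlations over 0.1), and with the replicate block 8, 0, 8, 7, 2 and 6 genes were called, with Elovl5 lost in A2/12 (-0.19, adjusted p = 0.0601).

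Centring arrays on their medians moved the median of all genes to 0.12 in E46 and 0.16 in A2/12. Elovl5 was then not called in E46 (-0.11), nor Srebf1 (-0.17), Fasn (-0.18) and Elovl5 (-0.03) in A2/12, while Acly was called there (0.19, adjusted p = 0.0317) and Fads1 turned to 0.08 and 0.05, uncalled. Relative to that median, Srebf1 was at -0.34 and Fasn at -0.34 in A2/12, and Acly at 0.03. Centring shifts all genes of an array by 1 constant, so these values are the same without it and test nothing.

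With the crossed doses, 0 genes were called in E46 at 100 and 8 at 1. For 100 against 1, Srebf1 became 0.39, Acly 0.38, Fasn 0.51, Elovl5 0.22, Elovl6 1.59, Scd1 0.42, Scd2 0.70 and Fads2 0.55. For the difference of responses, Elovl6 became 1.29 and Fads2 0.54, Scd1 was called (0.52, adjusted p = 3.71e-05), and Acly lost its call (-0.10, adjusted p = 0.363). Against controls, Idh1 became 0.27, Elovl4 -0.0748, Prkaa2 -0.12, Dgat2 -0.15, Acaa2 0.0393, Acadm 0.0207, Fabp5 0.0609, Tm7sf2 0.0572 and Hmgcs1 0.12. This follows from exchanging the 2 groups; the cause of the other shifts was not tested. Leaving aside the fits of single position numbers, Elovl6, Scd2 and Fads2 were called in both lines in every alternative run except the crossed doses in E46.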
